A study of Mus musculus with 8 samples.

Results

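The solute carrier (Slc) genes were followed across 20 clusters of mouse dorsal root ganglion cells. The members are all genes of the authors' deposited table of cluster markers whose symbol is Slc followed by a digit, which gave 159 of the 9229 genes in the table. The choice used the symbol alone, no measured value. Of these symbols, 3 name genes that are not carriers themselves: Slc9a3r1 and Slc9a3r2, which code for scaffold proteins, and Slc7a6os. They were kept under the rule and described apart.

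The study sorted living ganglion cells by an antibody to the proteasome subunit β5 applied from outside, which marks the neuronal membrane proteasome (NMP), a proteasome held at the plasma membrane of neurons. Both populations came from C57BL/6 mice aged 21 to 30 days, with no other allele or treatment named, and the ganglia of 4 mice were pooled per sample. Cells were exposed to the antibody for 30 min and to a fluorescent secondary antibody for 40 min. They were then sorted into NMP-positive and NMP-negative cells for droplet RNA sequencing that reads the 3′ ends of transcripts. The labels list 4 samples per population, 8 in all. These are 4 sequencing lanes of a single library per population, so neither population had a biological replicate. The marker table has no sample column, and no Slc gene could be compared between NMP-positive and NMP-negative cells. What the table holds is each cluster against all other cells of both populations together. Depth and numbers of cells are unknown, so no interval was attached to a share of cells.

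Solute carriers are membrane proteins that move ions, sugars, amino acids, transmitters, vitamins and metals across the plasma membrane or across the membranes of vesicles, lysosomes, mitochondria and the Golgi. In the dorsal root ganglion, sensory neurons load glutamate into synaptic vesicles with vesicular carriers, and their response to GABA depends on the chloride that cation-chloride cotransporters bring into the cell body. Satellite glia wrap each neuronal cell body, Schwann cells wrap the axons, and endothelial cells, mural cells, fibroblasts and macrophages make up the vessels and the connective tissue of the ganglion, each with carriers for its own supply.

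In this text a gene is higher or lower in a cluster when its deposited adjusted p-value is under 0.05, by the sign of its deposited log2 fold change, which sets the cluster's cells against the rest. Those p-values treat cells as units, and the clusters were formed from the same expression values, so they serve as a filter and support no statement about animals. A pair of gene and cluster is in the table only with an absolute log2 fold change of at least 0.25 and the gene found in at least 10% of cells on 1 side. A missing pair was not read as absence. The 159 Slc genes had 786 listed pairs, of which 298 were higher, 404 were lower and 84 did not pass the filter. The median listed log2 fold change over all genes of the authors' deposited table was -0.30.

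The authors named 10 clusters as neurons, which held 40.8% of all cells by the shares solved from the table. Another 3 clusters were named Low.UMI, for few transcript molecules per cell, and held 28.6%. The remaining 7 were named Unknown and held 30.7%. Marker lists were used to check these names. Of 6 neuronal markers, between 2 (Heat.sen) and 6 (CGRP-n) were higher in each of the named neuron clusters, and Peptidergic 488p also had 1 lower. The low-threshold mechanoreceptor cluster LTMR had all 4 touch markers higher, a list that includes the Slc member Slc17a8. Non-peptidergic had all 4 markers of its type and Cold.sen all 3. Heat.sen also had 2 of the 3 cold markers higher, Foxp2 and Cdh8. No neuronal marker was higher in an Unknown cluster. Unknown.1 was endothelial-like with 7 of 7 markers higher, Unknown.2 satellite-glia-like with 8 of 8, Unknown.3 mural-like with 7 of 7 and Unknown.4 Schwann-like with 7 of 7. Unknown.5 and Unknown.6 were fibroblast-like and Unknown 488p was macrophage-like, each with 7 of 7. Each of these 7 clusters also had 1 or 2 markers of at least 1 other list higher. Unknown.1 had the satellite glia markers Glul and Sparcl1. Unknown.5 had the mural markers Tagln and Pdgfrb and the endothelial marker Cdh5. Of the red blood cell list 1 gene of 4 and of the T cell list none was in the table, and neither list had a gene higher in any cluster.

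Neuronal transcripts were also found in clusters that had no neuronal marker higher. The authors' deposited table gave the neuronal tubulin gene Tubb3 in 24.0% to 36.7% of cells in each of the 7 Unknown clusters, at a log2 fold change of -2.27 or lower. The neuropeptide gene Calca was in 34.2% to 61.0% of these cells. A low share of cells with a Slc transcript in an Unknown cluster therefore does not by itself show expression there. The satellite glia marker Apoe was in 71.4% to 89.3% of the cells of CGRP-a, CGRP-e, CGRP-n, LTMR and Non-peptidergic. Its log2 fold changes there, -3.46 to -5.56, did not pass the filter. SST had it in 11.9% of cells and Peptidergic 488p in 8.7%. A large share at a low level in a neuron cluster does not by itself show expression either. The part of free RNA was not tested. Read depth per cluster is not in the table.

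Slc genes were not more often higher than other genes in any of the 3 classes of clusters taken as a whole. In the named neuron clusters 166 of 1590 possible pairs were higher, 10.4%, against 10.9% for all genes of the authors' deposited table, and 97 were lower, 6.10% against 6.72%. In the Unknown clusters 95 of 1113 pairs were higher, 8.54% against 10.2%, and 237 were lower, 21.3% against 27.1%. The Low.UMI clusters had 37 of 477 pairs higher, 7.76% against 10.9%, and 70 lower, 14.7% against 20.6%. The sizes differed between classes: the median higher pair had a log2 fold change of 0.41 in the named neurons (all genes 0.44) and of 0.88 in the Unknown clusters (all genes 0.80). The highest value was 1.48 in the named neurons and 3.48 in the Unknown clusters. By function, the median over listed pairs ran from -0.57 for the 3 symbols that are not carriers, and -0.34 for the calcium exchangers, to 0.31 for the carriers of vitamins and organic ions and 0.34 for the vesicular carriers.

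**Figure D1:**
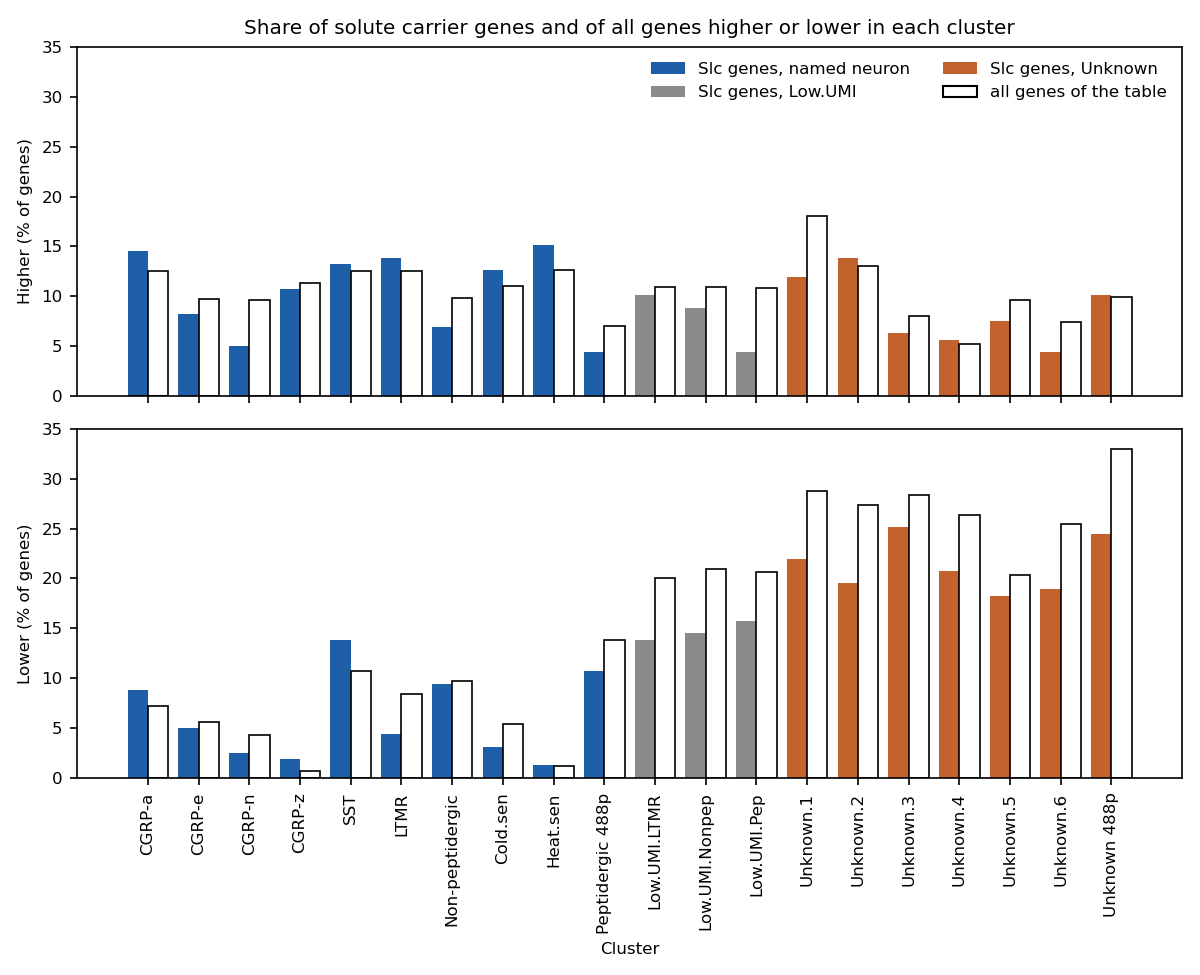
Percentage of genes higher (upper panel) and lower (lower panel) in each of the 20 clusters, for Slc genes (filled bars, coloured by class of cluster) and for all genes of the table (open bars). Of the Slc genes 15.1% were higher and 1.26% lower in Heat.sen, while 6.29% were higher and 25.2% lower in Unknown.3.

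Within the neurons, the CGRP clusters differed in how many Slc genes were called. Of 4 peptidergic markers, 3 were higher in CGRP-a and 4 in both CGRP-e and CGRP-n. In CGRP-z 1 of them, Trpv1, was higher and 1 was lower. CGRP-a had 23 higher and 14 lower Slc genes, where the share of all genes was 12.5% higher and 7.26% lower. CGRP-e had 13 and 8 (all genes 9.77% and 5.65%), and CGRP-n had 8 and 4 (all genes 9.61% and 4.32%). CGRP-z had 17 and 3 (all genes 11.3% and 0.715%). As a share of the 159 members, the higher genes ranged from 5.03% in CGRP-n to 14.5% in CGRP-a. SST, the cluster with 3 of 4 itch markers higher, had 21 higher and 22 lower (all genes 12.5% and 10.7%).

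Heat.sen had 24 Slc genes higher and 2 lower, where 12.6% and 1.18% of all genes were called. LTMR had 22 and 7 (all genes 12.5% and 8.46%) and Cold.sen 20 and 5 (all genes 11.0% and 5.44%). In these 3 clusters higher calls outnumbered lower ones for Slc genes and for all genes alike. Non-peptidergic had 11 higher and 15 lower (all genes 9.86% and 9.71%). Peptidergic 488p had 7 higher and 17 lower (all genes 7.05% and 13.8%), so lower calls prevailed for Slc genes and for all genes alike. Its listed Slc genes were found in a median of 31.2% of its cells, against medians of 74.6% to 95.2% in the other 9 named neuron clusters. The same held for all listed genes, with a median of 33.8% against 80.8% to 97.4%, so this was not particular to Slc genes.

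Among the Low.UMI clusters the lower calls prevailed. Low.UMI.LTMR had 16 Slc genes higher and 22 lower (all genes 10.9% and 20.1%), Low.UMI.Nonpep 14 and 23 (all genes 10.9% and 21.0%) and Low.UMI.Pep 7 and 25 (all genes 10.8% and 20.7%). Listed Slc genes were found in a median of 4.5% to 6.6% of the cells of these clusters.

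Each Unknown cluster had more lower than higher Slc genes. The endothelial-like Unknown.1 had 19 higher and 35 lower (all genes 18.0% and 28.8%), and the satellite-glia-like Unknown.2 had 22 and 31 (all genes 13.0% and 27.4%). The mural-like Unknown.3 had 10 and 40 (all genes 8.05% and 28.4%) and the Schwann-like Unknown.4 had 9 and 33 (all genes 5.21% and 26.4%). In the fibroblast-like clusters the counts were 12 and 29 for Unknown.5 (all genes 9.67% and 20.4%) and 7 and 30 for Unknown.6 (all genes 7.39% and 25.5%). The macrophage-like Unknown 488p had 16 and 39 (all genes 9.91% and 33.0%). For all genes, too, lower calls outnumbered higher calls in each of these 7 clusters.

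**Figure D2:**
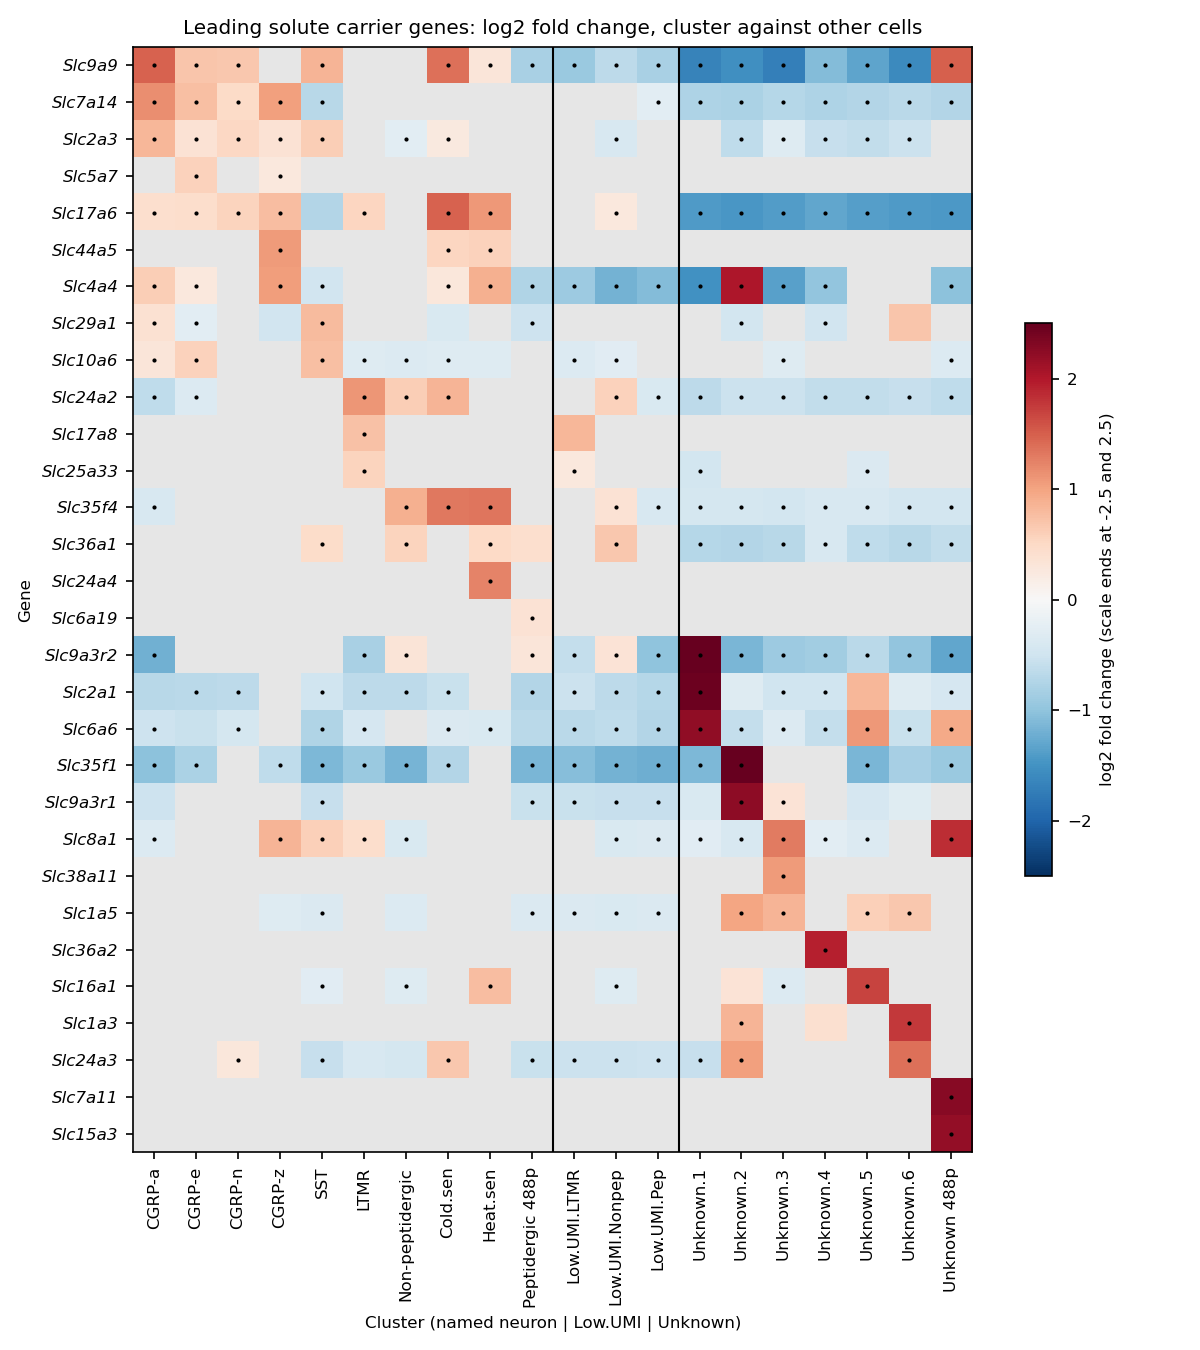
Deposited log2 fold change (colour, with a scale that ends before the most extreme values) of the leading Slc genes (rows) in each of the 20 clusters (columns), blank where the pair is not listed and with a dot where it passed the filter. Slc17a6 and Slc7a14 have their highest values in Cold.sen and CGRP-a, Slc9a9 has nearly the same value in CGRP-a (1.48) and Unknown 488p (1.49), and Slc35f1, Slc2a1 and Slc7a11 reach theirs in Unknown.2, Unknown.1 and Unknown 488p.

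Both vesicular carriers in the table had higher calls in named neuron clusters and none in an Unknown cluster. Slc17a6, the vesicular glutamate transporter VGLUT2, was higher in 7 of the 10 named neuron clusters and lower in all 7 Unknown clusters. In the authors' deposited table its log2 fold change was 1.48 in Cold.sen, 1.08 in Heat.sen, 0.77 in CGRP-z, 0.55 in CGRP-n, 0.53 in LTMR, 0.44 in CGRP-e and 0.42 in CGRP-a, with 99.3% to 100.0% of the cells of each. In the Unknown clusters 2.7% to 5.1% of cells had it, with values between -1.46 (Unknown.2) and -1.30 (Unknown.4). Cold.sen and Heat.sen therefore had the 2 highest values, and the other 5 lay between 0.42 and 0.77. Of the other 3 named neuron clusters, Non-peptidergic and Peptidergic 488p were not listed for Slc17a6. SST had it in 85.5% of cells, at -0.73, which did not pass the filter. In Low.UMI.Nonpep the gene was higher at 0.27, although 26.0% of its cells and 49.4% of the other cells had it.

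Slc17a8, the vesicular glutamate transporter VGLUT3, was much narrower. The authors' deposited table put it in 96.8% of LTMR cells and 3.1% of other cells, at a log2 fold change of 0.74. Low.UMI.LTMR had the transcript in 11.3% of its cells, against 6.7% of other cells, at 0.83 without passing the filter. Over the 18 clusters in which Slc17a8 was not listed, a mean of 2.9% of cells had it. No other vesicular carrier of the fixed list, such as those for acetylcholine, monoamines or GABA, was in the table used here.

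The vesicle proton pump, whose gradient these carriers use, was listed in full. All 17 subunit genes of the list were in the table. Of these, 14 were higher in at least 1 named neuron cluster (all genes 43.2%), 1 was lower in at least 1 (all genes 28.0%), and 16 were lower in at least 1 Unknown cluster (all genes 50.5%). In the Unknown clusters the list had 96 lower pairs, 80.7% of the 119 possible (all genes 27.1%), and 3 higher pairs (all genes 10.2%). The proton channel ring subunit gene Atp6v0c had its lowest value, -1.78, in Unknown.1 in the authors' deposited table, and the pump subunit gene Atp6v1f its highest, 1.05, in Low.UMI.LTMR.

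Carriers that take glutamate and neutral amino acids into cells numbered 4 in the table. They had 7 higher and 4 lower pairs in Unknown clusters (all genes 10.2% and 27.1% of possible pairs). In named neuron clusters they had 1 higher and 2 lower pairs (all genes 10.9% and 6.72%). Slc1a3, the glial glutamate transporter GLAST, was higher in the fibroblast-like Unknown.6 (log2 fold change 1.77 in the authors' deposited table, 51.8% of cells against 5.8%) and in the satellite-glia-like Unknown.2 (0.85, 37.8% against 3.5%). The Schwann-like Unknown.4 had it in 12.3% of cells, at 0.41, without passing the filter. The Slc1a3 value was thus higher in the cluster with fibroblast markers than in the cluster with satellite glia markers. In Unknown.6, 1 satellite glia marker was higher, Sparcl1, and 3 were lower.

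Slc1a5, a neutral amino acid exchanger, was higher in 4 Unknown clusters, at 0.99 in Unknown.2, 0.84 in Unknown.3, 0.67 in Unknown.6 and 0.59 in Unknown.5 in the authors' deposited table. It was found in 27.0% to 45.8% of their cells. Slc1a4, a related exchanger, was higher at 0.78 in Unknown.2 (43.5% of cells against 29.9%). It was lower in 5 clusters, 4 of them Unknown and 1 Low.UMI. Slc1a6, a glutamate transporter, was listed in 1 cluster, Peptidergic 488p, at 0.26 (32.9% against 16.0%). Of 4 Slc1 genes, then, 3 were higher in an Unknown cluster (all genes 42.3%) and 1 in a named neuron cluster (all genes 43.2%).

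Enzymes that make and consume glutamate were read beside these carriers. Glul, glutamine synthetase and also 1 of the 8 satellite glia markers, was higher in Unknown.1 (log2 fold change 2.20, 83.2% of cells), Unknown.5 (1.02, 76.3%) and Unknown.2 (0.78, 72.9%) in the authors' deposited table. The highest Glul value therefore lay in the endothelial-like cluster. Of the 5 enzyme genes in the table, 3 were higher in at least 1 named neuron cluster (all genes 43.2%) and 3 in at least 1 Unknown cluster (all genes 42.3%). Lower calls were found for 3 in named neuron clusters (all genes 28.0%) and for 3 in Unknown clusters (all genes 50.5%).

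The sodium-coupled carriers of transmitters, taurine and choline were split between cell types. Slc6a6, the taurine transporter, was higher in Unknown.1 (log2 fold change 2.21, 59.9% of cells against 21.6%), Unknown.5 (1.09, 42.1%) and Unknown 488p (0.95, 53.4%) in the authors' deposited table, and lower in 13 clusters. Its lowest value, -0.74, was in SST, where 1.3% of cells had it. Slc6a13, a GABA and taurine transporter, was higher in both fibroblast-like clusters, at 1.12 in Unknown.5 (24.2% of cells against 1.3%) and 0.60 in Unknown.6 (16.3% against 1.6%). Slc6a11, a GABA transporter, was higher at 0.27 in Unknown.2 (11.6% against 0.5%), and Slc6a9, a glycine transporter, at 0.33 in Unknown.3 (10.0% against 2.1%).

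In the neurons other members of this group were called. Slc5a7, the high-affinity choline transporter that supplies acetylcholine synthesis, was found in 72.6% of CGRP-e cells and 3.5% of other cells, at a log2 fold change of 0.57 in the authors' deposited table. CGRP-z had it in 39.3% of cells, at 0.27. Slc6a17, a neutral amino acid carrier of synaptic vesicles, was higher in 4 named neuron clusters, at 0.29 to 0.36, and in Low.UMI.LTMR at 0.50. Slc6a15, a neutral amino acid carrier of the plasma membrane, was higher at 0.49 in Cold.sen, 0.44 in SST and 0.41 in CGRP-e. Slc6a19, another neutral amino acid carrier, was higher in Peptidergic 488p, at 0.36 (30.7% against 8.6%), and was the single Slc gene that met the size rule for naming in that cluster.

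The chloride-loading cotransporter showed a separation of level from share of cells. Slc12a2 (NKCC1), which brings sodium, potassium and chloride into the cell, was higher in Unknown.2, where the authors' deposited table gave a log2 fold change of 2.01 and 85.4% of cells. It was lower in 5 named neuron clusters: at -0.57 in CGRP-a, -0.56 in CGRP-e, at -0.43 in LTMR, -0.28 in SST and -0.27 in Non-peptidergic. Yet it was found in 79.5% of CGRP-a, 84.8% of CGRP-e, 91.3% of SST, 97.1% of LTMR and 98.3% of Non-peptidergic cells, against 47.9% to 48.9% of the other cells. The lower calls in neurons therefore refer to the deposited average level, not to a smaller share of cells with the transcript. These shares do not by themselves show expression in neurons, since the part of free RNA was not tested. In the Low.UMI clusters, 4.3% to 9.1% of cells had Slc12a2, with values from -0.93 to -0.43.

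Potassium-chloride cotransporters, which carry chloride out, were called in fewer clusters. Slc12a7 (KCC4) was found in 87.7% of LTMR cells and 5.7% of other cells, at 0.30 in the authors' deposited table, and was also higher in Unknown.1 at 0.26 (14.6% against 8.3%). Slc12a4 (KCC1) was higher at 0.53 in Unknown.5 and 0.47 in Unknown.2. The neuronal KCC2 gene, Slc12a5, was not in the table used here.

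Kinases that regulate the cotransporters were followed as a fixed list, of which 5 of 6 genes were in the table. Of these, 3 were higher in at least 1 named neuron cluster (all genes 43.2%) and 2 in at least 1 Unknown cluster (all genes 42.3%). Stk39, which phosphorylates NKCC1, was higher in Unknown.4 (log2 fold change 1.88, 59.8% of cells) and LTMR (0.36, 99.4%) in the authors' deposited table, and was lower in Unknown.2 at -0.27. Wnk1, which acts upstream of it, was higher in Unknown 488p (1.26), Unknown.3 (0.80), Unknown.1 (0.67) and CGRP-a (0.30). The cluster with the highest Slc12a2 value, Unknown.2, thus had Stk39 lower, and Wnk1 was not listed there. The sodium pump, which sets the gradient for these carriers, had all 11 listed genes in the table, of which 8 were higher in at least 1 named neuron cluster (all genes 43.2%) and all 11 lower in at least 1 Unknown cluster (all genes 50.5%).

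**Figure D3:**
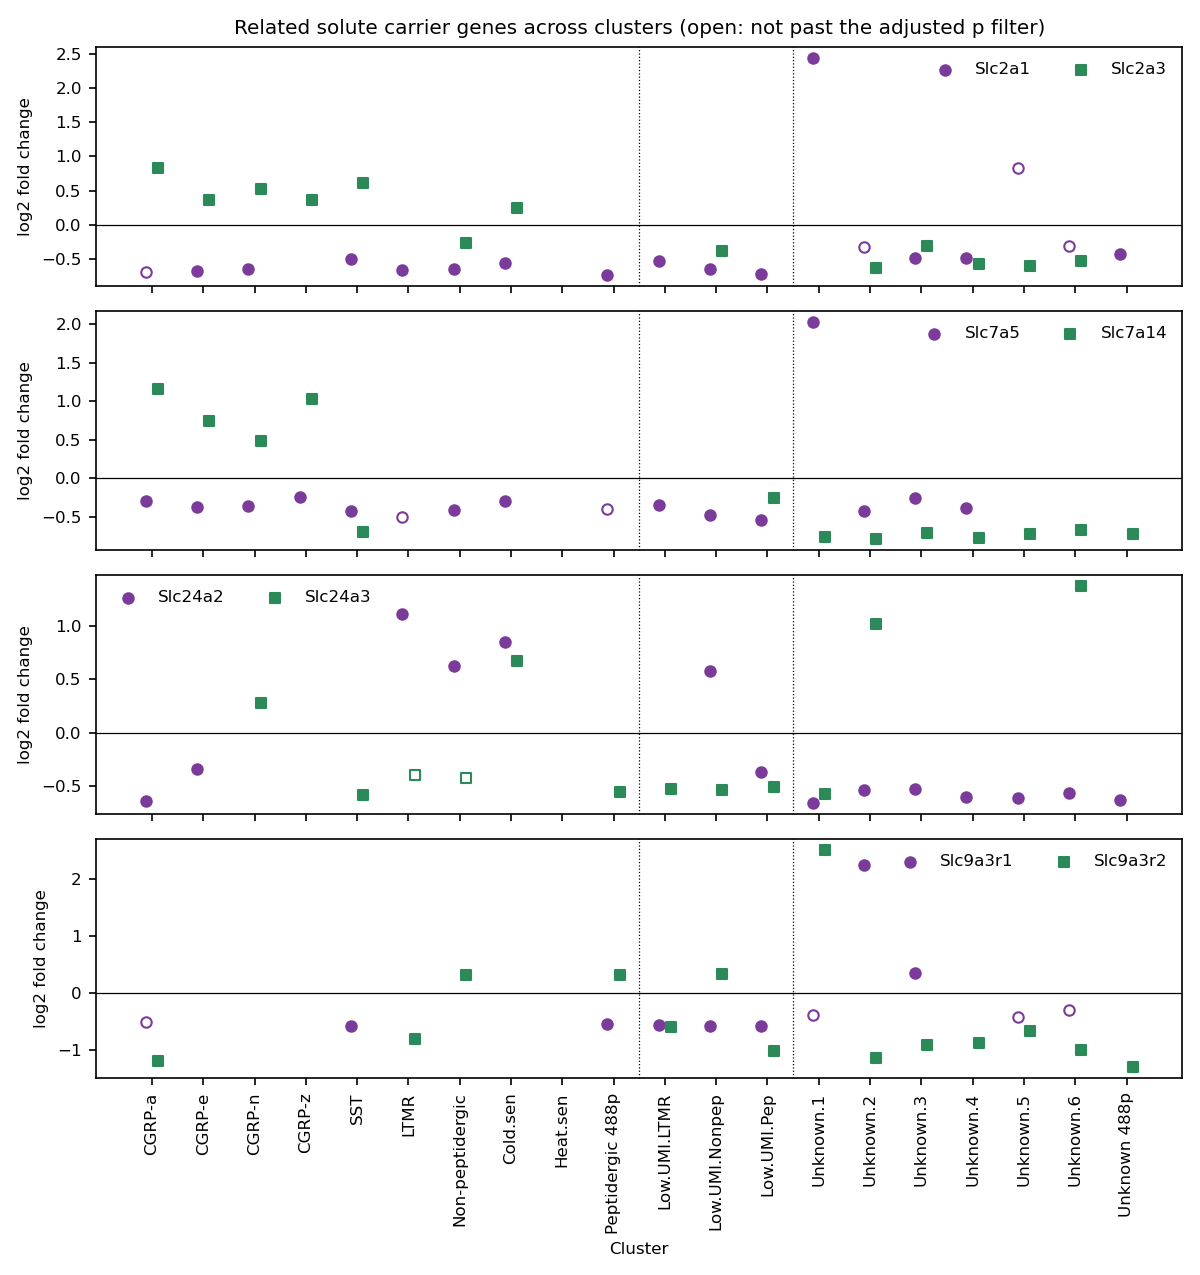
Deposited log2 fold change (vertical) in each cluster (horizontal) for 4 pairs of related symbols, Slc2a1 and Slc2a3, Slc7a5 and Slc7a14, Slc24a2 and Slc24a3, and Slc9a3r1 and Slc9a3r2, with open points for pairs that did not pass the filter and the line at 0 for no difference from the other cells. Slc2a3 lies above 0 and Slc2a1 below it in CGRP-a, CGRP-e, CGRP-n, SST and Cold.sen, and Slc2a1 reaches 2.45 in Unknown.1.

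Acid-base carriers held Slc9a9, the Slc gene of largest log2 fold change in CGRP-a, CGRP-n and SST. This endosomal sodium-proton exchanger gene was higher in 6 of the 10 named neuron clusters: its log2 fold change was 1.48 in CGRP-a, 1.38 in Cold.sen, 0.85 in SST, 0.69 for CGRP-e, 0.67 for CGRP-n and 0.29 in Heat.sen in the authors' deposited table. In these 6 clusters 93.9% to 100.0% of cells had it. CGRP-z, LTMR and Non-peptidergic were not listed for Slc9a9, and a mean of 99.5% of the cells in these 3 clusters had it, so a missing pair here did not mean a missing transcript. Peptidergic 488p differed from the other neurons, with Slc9a9 in 35.1% of cells at -0.81. Among the Unknown clusters Slc9a9 was lower in 6, down to -1.71 in Unknown.3, and higher in the macrophage-like Unknown 488p at 1.49 (71.9% of cells).

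Slc4a4, a sodium-bicarbonate cotransporter, was higher in 5 named neuron clusters and in Unknown.2. In the authors' deposited table it stood at 2.01 in Unknown.2 (83.9% of cells), 1.04 in CGRP-z, 0.89 in Heat.sen, 0.62 in CGRP-a, 0.28 in Cold.sen and 0.26 in CGRP-e. It was lower in 9 clusters, down to -1.51 in Unknown.1. Other acid-base members had 1 or 2 higher clusters each, among them Slc4a11 in SST (0.55, 92.0% of cells against 16.5%), Slc4a10 in Cold.sen (0.48, 57.6% against 6.7%) and Slc9a3 in Unknown.4 (0.91, 18.3% against 0.3%).

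Calcium exchangers differed from one sensory type to another. Slc24a2 (NCKX2), which exports calcium in exchange for sodium together with potassium, led LTMR at a log2 fold change of 1.11 (100.0% of cells against 25.8%) in the authors' deposited table, and was higher in Cold.sen at 0.84 and Non-peptidergic at 0.62. In CGRP-a, by contrast, it was lower at -0.64, with 11.1% of cells. Slc24a4 (NCKX4) was called in 1 cluster, Heat.sen, at 1.24 (89.8% against 3.3%). Over the 19 clusters not listed for Slc24a4, a mean of 3.3% of cells had it. Slc24a3 (NCKX3) was higher in Unknown.6 (1.38, 54.6% of cells), Unknown.2 (1.02, 51.8%), Cold.sen (0.67, 87.2%) and CGRP-n (0.27, 86.2%), and lower in 6 clusters.

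Slc8a1 (NCX1), the sodium-calcium exchanger of the plasma membrane, was higher in 5 clusters of different kinds. The authors' deposited table gave 1.85 in Unknown 488p (51.4% of cells), 1.30 in Unknown.3 (45.0%), 0.85 in CGRP-z (86.0%), 0.59 in SST (84.8%) and 0.44 in LTMR (94.8%). It was lower in 8 clusters, with -0.41 in Unknown.2, where 0.1% of cells had it. Slc24a5, an exchanger of melanosomes, was higher in no cluster and lower in 3. Slc8a2 (NCX2) and Slc8b1, the exchanger of the mitochondrial membrane, were each listed in 1 cluster without passing the filter: Unknown.3 at 0.54 and Unknown 488p at 0.41.

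Glucose carriers divided between neurons and endothelial-like cells. Slc2a3 (GLUT3), the glucose transporter typical of neurons, was higher in 6 named neuron clusters: in the authors' deposited table at 0.83 in CGRP-a, 0.61 in SST, 0.52 in CGRP-n, 0.36 in both CGRP-e and CGRP-z and 0.25 in Cold.sen, with 86.9% to 98.5% of their cells. Slc2a1 (GLUT1), the glucose transporter of barrier endothelium, was higher in Unknown.1, at 2.45 (64.6% of cells against 34.5%), and lower in 13 clusters, 7 of them named neurons. In 6 of these 7 the lower level again came with a larger share of cells than in the rest, as in LTMR (-0.66, 78.6% of cells against 35.6%) and SST (-0.50, 85.0% against 34.3%). The lowest value, -0.74 in Peptidergic 488p, came with a smaller share (22.9% against 37.7%). Slc2a4 (GLUT4), the insulin-responsive glucose transporter of muscle and fat, was listed once, in the mural-like Unknown.3, at 0.50 (14.5% against 0.1%). Slc2a13, a proton-coupled inositol transporter, was higher in 4 named neuron clusters, up to 1.06 in Cold.sen (90.4% against 12.7%).

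Monocarboxylate carriers had other leading clusters. Slc16a1 (MCT1), which carries lactate and pyruvate, was higher in Unknown.5 at a log2 fold change of 1.68 (57.9% of cells against 32.0%) and in Heat.sen at 0.78 (93.9% against 31.9%) in the authors' deposited table. Slc16a12, a creatine transporter, was listed in 1 cluster, Non-peptidergic, where 86.2% of cells and 2.0% of other cells had it, at 0.35. Slc16a10, a carrier of aromatic amino acids, was higher in Unknown 488p at 1.46 (40.4% against 5.9%), and Slc16a4 in Unknown.1 at 1.00 (38.0% against 2.0%).

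Glycolysis and lactate enzymes were read beside the sugar carriers. All 16 genes of the list were in the table: 13 were higher in at least 1 named neuron cluster (all genes 43.2%) and 15 were lower in at least 1 Unknown cluster (all genes 50.5%). In the Unknown clusters the list had 88 lower pairs, 78.6% of the 112 possible (all genes 27.1%), and 6 higher pairs (all genes 10.2%). The 6 higher pairs belonged to Ldhb, a lactate dehydrogenase subunit (1.74 in Unknown.2 and 1.45 in Unknown.4 in the authors' deposited table), Aldoc, an aldolase (1.63 in Unknown.2), and Hk2, a hexokinase (1.73 in Unknown.6, 0.61 in Unknown.5 and 0.58 in Unknown 488p). The cluster with the highest Slc2a1 value, Unknown.1, had 13 of the enzyme genes lower and none higher (all genes 28.8% and 18.0%). This was not particular to it: the other Unknown clusters had 11 to 14 lower, and Unknown.3 also had none higher.

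Among amino acid carriers, 7 of 23 were higher in at least 1 named neuron cluster (all genes 43.2%) and 13 in at least 1 Unknown cluster (all genes 42.3%). Slc7a14, a member of the cationic amino acid family, was higher in all 4 CGRP clusters and in no other. In the authors' deposited table it had log2 fold changes of 1.15 in CGRP-a, 1.03 in CGRP-z, 0.75 in CGRP-e and 0.48 in CGRP-n, with 95.6% to 99.1% of cells, and it was lower in 9 clusters. Slc7a3, a cationic amino acid transporter, was higher in CGRP-a (0.61, 61.1% of cells against 6.2%) and CGRP-e (0.41, 54.0% against 8.1%). Slc36a1, a proton-coupled amino acid carrier of lysosomes, was among the 3 leading Slc genes of Non-peptidergic, at 0.55 (99.0% against 37.1%). Slc38a1, a glutamine transporter, was higher in Heat.sen at 0.75 and in Unknown 488p at 0.96.

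In the endothelial-like Unknown.1 both chains of a large neutral amino acid transporter were higher. The log2 fold change was 2.03 for Slc7a5 (LAT1, 70.3% of cells against 28.0%) and 1.73 for its partner chain Slc3a2 (87.5% against 59.4%) in the authors' deposited table. The cationic amino acid transporter Slc7a1 (1.49) and the glutamine transporter Slc38a2 (1.56) were higher there too. Slc7a5 was lower in 13 clusters and higher in no other. In the mural-like Unknown.3, Slc38a11 was higher at 1.06 (31.8% of cells against 0.8%). The Schwann-like Unknown.4 was led by Slc36a2, a proton-coupled carrier of small amino acids, at 1.95 (42.5% against 0.4%). Satellite-glia-like cells had Slc43a3 (1.90, 70.1% against 5.6%) and the cationic carrier Slc7a2 (1.54, 59.6% against 4.0%).

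The macrophage-like Unknown 488p was led by 2 carriers of this group. Slc7a11, which exchanges extracellular cystine for glutamate and pairs with the Slc3a2 chain, had a log2 fold change of 2.27 in the authors' deposited table, with 39.7% of cells against 2.9%. Slc15a3, a lysosomal carrier of histidine and peptides, had 2.20 (58.9% of cells against 0.8%). Neither gene was listed for any other cluster. Slc3a2 was higher in Unknown.1 and Unknown.2, and was not higher in Unknown 488p.

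Slc7a11 is a textbook target of the amino acid response, in which ATF4 binds a response element, so its promoter is shown, with other members that hold the same letters. The motif searched was TGATGNAA, on both strands, in the 250 bases before each transcript start of the RefSeq promoter table (GRCm38.p6). Windows on 1 chromosome were left out before counting, for members and for all genes alike. Of the 159 members 127 had a window among the rest, and 5 held the motif, 3.94% of them, against 3.91% of the 27025 genes with a window. The Slc genes thus held it as often as genes at large. Slc7a11 was the single one of the 5 with 2 matches in 1 window, facing each other, 66 and 47 bases before the start. Its window, chr3:50443614-50443863 on the minus strand, is given 5′ to 3′ with both matches in capitals.
Slc7a11: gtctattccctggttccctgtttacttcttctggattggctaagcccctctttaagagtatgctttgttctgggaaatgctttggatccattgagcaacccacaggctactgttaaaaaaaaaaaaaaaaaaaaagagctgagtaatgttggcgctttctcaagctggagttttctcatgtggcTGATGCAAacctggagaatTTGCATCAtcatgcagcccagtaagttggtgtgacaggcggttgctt

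The other 4 genes are given as short stretches around each match, to compare the letters next to the motif. Slc7a7, a carrier of cationic amino acids, had a match in each of 2 windows. The stretches are chr16:35769540-35769599 (minus strand) for Slc49a4, chr3:89270726-89270785 (minus strand) for Slc50a1, chr14:54417912-54417952 (minus strand) for Slc7a7, chr14:54418052-54418111 (minus strand) for Slc7a7, chr9:94669797-94669856 (plus strand) for Slc9a9. Outside the capitals no order of letters was searched.
Slc49a4: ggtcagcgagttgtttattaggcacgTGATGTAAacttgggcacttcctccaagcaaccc
Slc50a1: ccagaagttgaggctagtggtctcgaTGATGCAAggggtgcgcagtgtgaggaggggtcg
Slc7a7: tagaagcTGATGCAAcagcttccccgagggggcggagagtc
Slc7a7: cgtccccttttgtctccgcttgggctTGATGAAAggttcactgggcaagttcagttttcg
Slc9a9: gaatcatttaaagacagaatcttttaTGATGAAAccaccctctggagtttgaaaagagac

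These 5 genes had different clusters with higher calls. In the authors' deposited table Slc9a9 was higher in 6 named neuron clusters and Unknown 488p, Slc49a4 was higher in Unknown 488p (log2 fold change 1.37, 54.1% of cells against 45.8%) and lower in Unknown.6. Slc7a7 was higher in SST (0.55), Non-peptidergic (0.47), CGRP-a (0.44) and Low.UMI.Nonpep (0.46), and lower in all 7 Unknown clusters. Slc50a1, a sugar carrier, was higher in Unknown.5 (0.88) and Unknown.1 (0.59).

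Metal carriers were higher in different clusters for zinc and for iron. The zinc importer Slc39a10 was higher in Unknown.1 (log2 fold change 2.07, 76.3% of cells against 40.3%) and lower in 14 clusters in the authors' deposited table. Slc39a8, an importer of zinc and manganese, was listed in Unknown.1 at 1.15 (39.3% against 0.6%), and the zinc exporter Slc30a1 was higher there at 0.78. In Unknown 488p, 3 iron carriers were higher: Slc11a1, of the phagosome membrane (0.88, 28.1% of cells against 2.6%), Slc11a2 (0.88, 32.9% against 18.4%) and the iron exporter Slc40a1 (0.44, 11.6% against 2.2%). In neurons Slc39a6, a zinc importer, was higher in CGRP-e (0.46), CGRP-z (0.41) and CGRP-a (0.34), and its lowest value was -0.80, in Unknown.1. Slc48a1, a heme carrier, was higher in SST at 0.51 (94.1% against 47.3%) and in Peptidergic 488p at 0.47.

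Mitochondrial carriers, the Slc25 family, had 12 of 23 members higher in at least 1 named neuron cluster (all genes 43.2%). These made 24 higher pairs over 10 clusters (all genes 10.9% of possible pairs). In the same clusters 1 member was lower at least once (all genes 28.0%). In the 3 Low.UMI clusters 12 pairs were higher (all genes 10.9% of possible pairs). In the Unknown clusters 14 members were lower at least once (all genes 50.5%), with 55 lower pairs, 34.2% of those possible (all genes 27.1%). They had 8 higher pairs there (all genes 10.2% of possible pairs). Slc25a4, the ADP/ATP carrier of heart, muscle and neurons, was found in 88.7% of all cells. In the authors' deposited table it was higher in Peptidergic 488p (log2 fold change 0.63), LTMR (0.50), Non-peptidergic (0.37), Cold.sen (0.33) and all 3 Low.UMI clusters (0.47 to 0.79). It was lower in all 7 Unknown clusters, from -0.36 in Unknown.3 to -2.43 in Unknown 488p, where 40.4% of cells had it. Slc25a5, another ADP/ATP carrier, was higher in Unknown.3 at 0.69 and in LTMR at 0.35, and lower in CGRP-a at -0.66.

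LTMR had 7 of the 23 Slc25 genes higher and none lower (all genes 12.5% and 8.46%). They included the pyrimidine nucleotide carrier Slc25a33 (log2 fold change 0.55, 99.0% of cells against 34.4%), the phosphate carrier Slc25a3 (0.48) and the citrate carrier Slc25a1 (0.44) in the authors' deposited table. Slc25a12, a mitochondrial aspartate-glutamate carrier, was higher in 4 named neuron clusters, at 0.25 to 0.40. Its relative Slc25a13 was higher in Unknown.4 (0.48, 10.5% of cells) and Unknown.2 (0.34, 15.6%), and no cluster was higher for both. The highest value of the family was 0.95, for Slc25a21 in Unknown.6 (23.4% against 0.7%).

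Members of the Slc35 family, many of which carry nucleotide sugars into the Golgi, had the highest value of all Slc genes. Slc35f1 was higher in Unknown.2 at a log2 fold change of 3.48, with 90.5% of cells against 12.3%, and lower in 14 clusters in the authors' deposited table. Its lower values ran down to -1.22 in Low.UMI.Pep, and Unknown.5 was listed with it in 0.0% of cells. Slc35f4, of the same subfamily, had its higher calls in neurons: Heat.sen (1.35, 96.9% of cells), Cold.sen (1.32, 95.6%), Non-peptidergic (0.89, 100.0%) and Low.UMI.Nonpep (0.36, 10.3%). Slc35f3 was higher in LTMR (0.49, 93.2% against 11.1%) and Non-peptidergic (0.25, 73.5% against 11.0%). These 3 subfamily members thus had different clusters at the top.

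The carriers of vitamins, nucleosides, choline and organic ions had 12 of 19 members higher in at least 1 named neuron cluster (all genes 43.2%) and 7 in at least 1 Unknown cluster (all genes 42.3%). The difference between both counts was not tested. Slc44a5, of the choline carrier family, led CGRP-z at a log2 fold change of 1.07 (75.7% of cells against 3.9%) in the authors' deposited table. Its relative Slc44a1 was higher in Unknown.4 at 1.29 (58.9% against 48.3%), Unknown.2 at 0.52, Non-peptidergic at 0.48 and CGRP-a at 0.40. SST was led, after Slc9a9, by the nucleoside transporter Slc29a1 (0.79, 94.8% against 31.2%) and the steroid sulfate carrier Slc10a6 (0.74, 93.3% against 17.2%). Slc22a17, a receptor for a siderophore-binding lipocalin, was higher in Unknown.2 at 1.07 and in 3 named neuron clusters, and had the lowest value of the group, -0.93, in Unknown.3.

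LTMR had 2 bile acid carriers that few other cells had. Slc10a2, the sodium-coupled bile acid transporter of the intestine, was found in 62.8% of LTMR cells and 0.2% of other cells, at a log2 fold change of 0.32 in the authors' deposited table. Slc51a, a chain of the organic solute transporter, was found in 71.5% of LTMR cells and 0.8% of other cells, at 0.33. Neither gene was listed elsewhere. Their fold changes were small beside the difference in the share of cells, which was 62.6 points for Slc10a2.

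In the phosphate group Slc34a2 marked the same clusters as Slc4a10: Cold.sen (log2 fold change 0.33, 46.8% of cells against 1.0%) and Heat.sen (0.36, 43.9% against 2.4%) in the authors' deposited table. Slc20a2, a sodium-phosphate carrier, was higher in Unknown.4 at 1.01, and the lowest value of the group was -0.38, for the sialic acid exporter Slc17a5 in Unknown.3. Of the other families, the fatty acid carrier Slc27a1 was higher in Unknown.2 at 1.52 (67.3% of cells against 18.0%) and Unknown.6 at 0.67, with its lowest value at -0.39 in Low.UMI.Pep.

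The scaffold genes that carry an Slc symbol were high in 2 of the Unknown clusters. Slc9a3r2 (NHERF2) had a log2 fold change of 2.50 in Unknown.1 (88.9% of cells against 38.9%), the highest Slc symbol there, and was lower in 10 clusters, down to -1.30 in Unknown 488p, in the authors' deposited table. Slc9a3r1 (NHERF1) had 2.23 in Unknown.2 (78.0% against 7.1%) and 0.34 in Unknown.3. Slc7a6os was listed once and did not pass the filter. Without these 3 genes the named neurons had 164 higher and 93 lower pairs (10.5% and 5.96%, all genes 10.9% and 6.72%). The Unknown clusters then had 92 higher and 231 lower (8.42% and 21.2%, all genes 10.2% and 27.1%).

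Slc genes higher in a single cluster were frequent, whatever their lower calls elsewhere. Of 159 members 76 were higher in exactly 1 cluster, 47.8%, against 34.2% of all genes. At least 1 named neuron cluster was higher for 74 members (46.5%, all genes 43.2%), at least 1 Unknown cluster for 71 (44.7%, all genes 42.3%), and both kinds for 14 (8.81%, all genes 8.96%). These 14 included the carriers Slc4a4, Slc8a1, Slc9a9, Slc16a1, Slc24a3 and Slc44a1 described above. A further 12 members were higher in Low.UMI clusters alone (7.55%, all genes 9.36%), 16 were higher in no cluster (10.1%, all genes 14.1%) and 8 passed the filter in neither direction anywhere (5.03%, all genes 4.76%). No test of these shares was made, since the genes of 1 table are not independent.

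**Figure D4:**
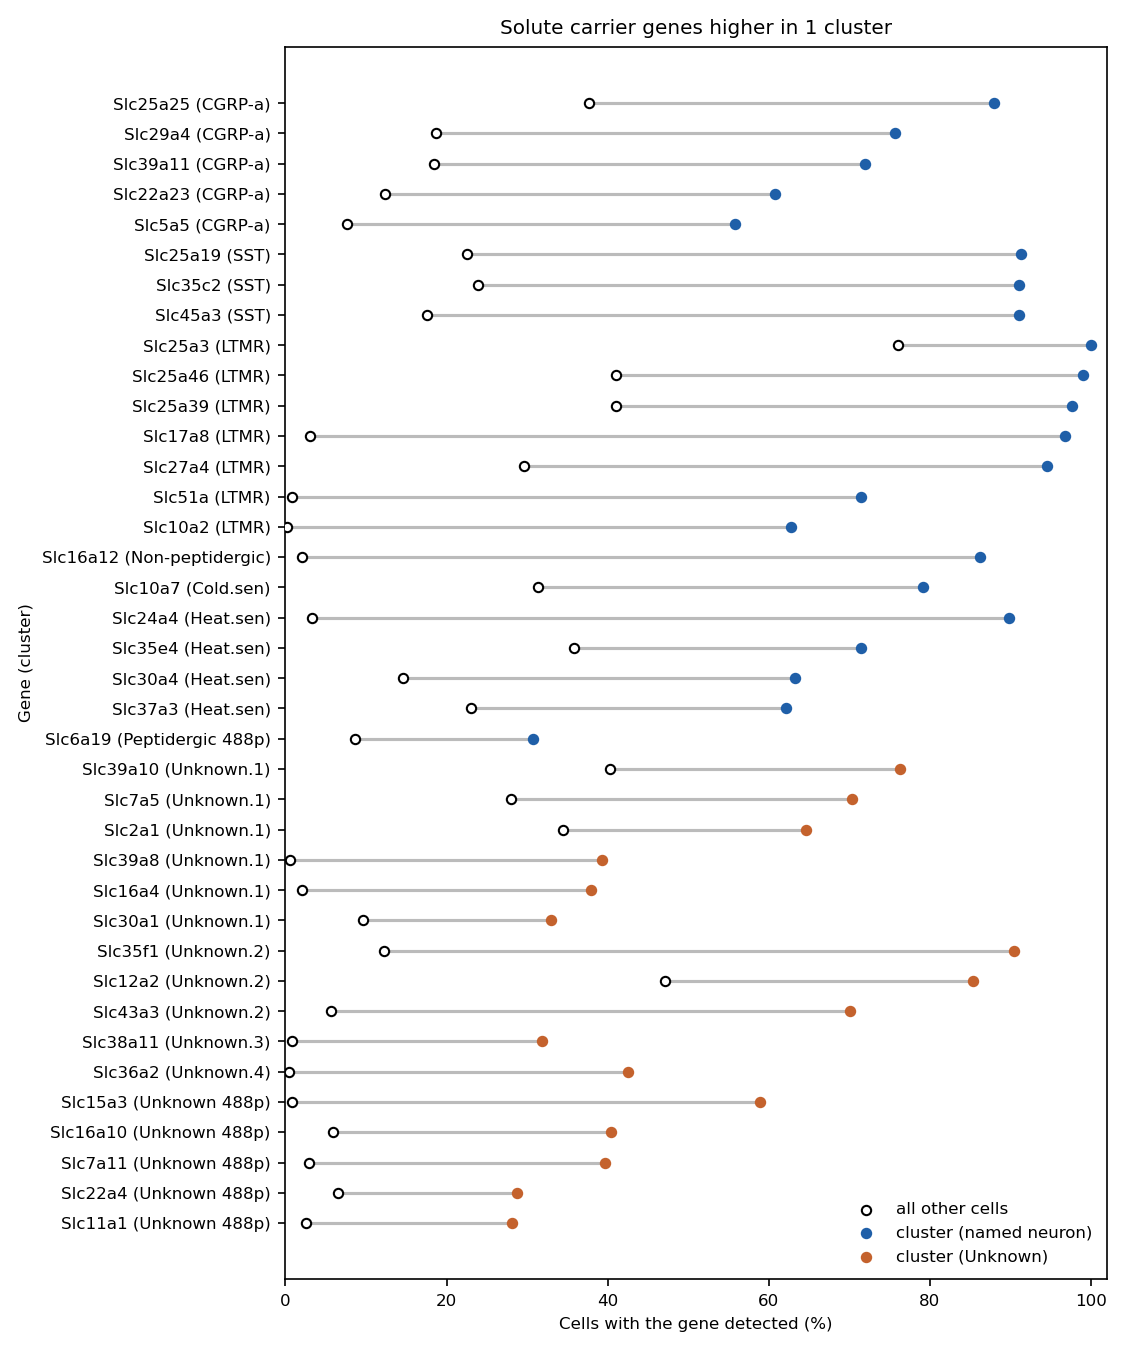
Percentage of cells with the transcript in the cluster (filled, coloured by class) and in the other cells (open) for Slc genes higher in exactly 1 cluster, kept where the cluster reached 25% and lay 20 points or more above the rest. Slc17a8, Slc24a4 and Slc16a12 reach 86.2% to 96.8% in neuron clusters and 2.0% to 3.3% elsewhere, and Slc15a3 reaches 58.9% in Unknown 488p.

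Fold change and share of cells pointed in opposite directions in 101 of the 702 called Slc pairs, nearly all of them lower calls in named neurons and higher calls in Low.UMI clusters. In the named neuron clusters 0 of the 166 higher pairs had it so, but 58 of the 97 lower Slc pairs, 59.8%, had the gene in more of the cluster's cells, as a share, than of the rest. For all genes this was 46.5% of the lower pairs in the authors' deposited table. In the Low.UMI clusters all 37 higher pairs had the gene in a smaller share of cells (all genes 95.3%), and 0 of the 70 lower pairs had it in a larger one. In the Unknown clusters this was seen in 3 of 95 higher and 3 of 237 lower pairs. A lower call in a named neuron cluster, or a higher call in a Low.UMI cluster, therefore did not by itself give the direction of the share of cells. The number of molecules per cell differs between these clusters by the authors' own names, its values are not in the table, and its part in the calls was not tested.

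**Figure D5:**
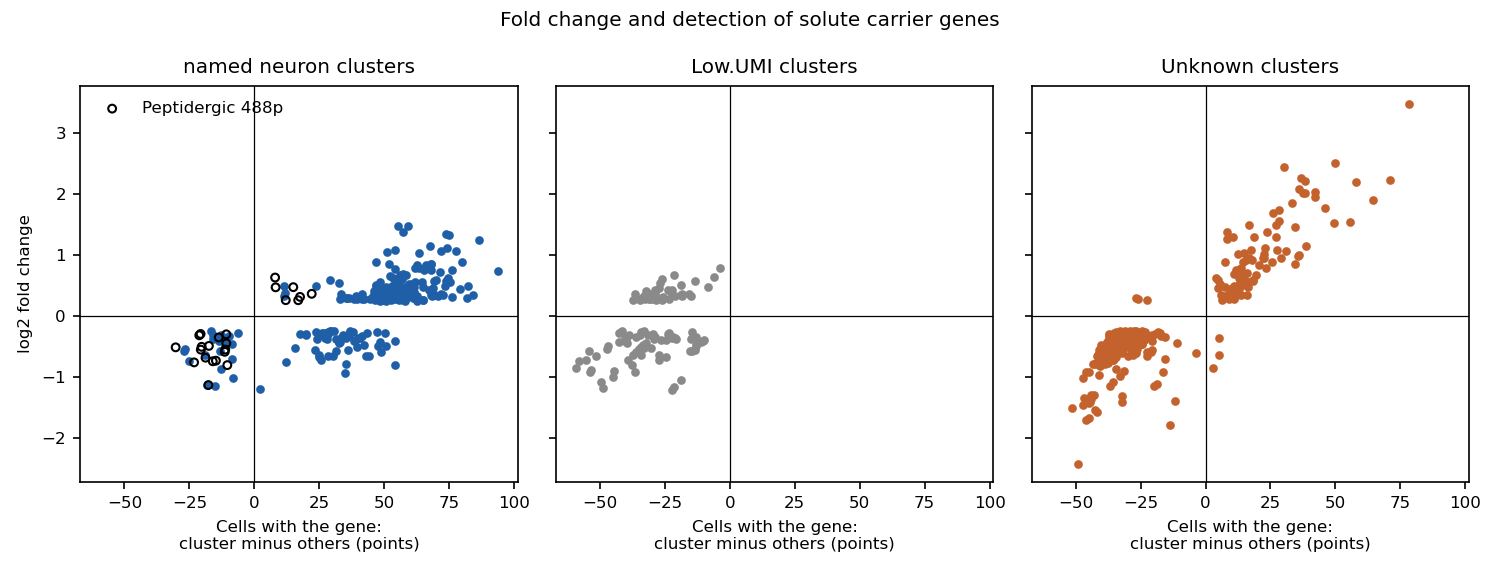
Deposited log2 fold change (vertical) against the difference in the share of cells with the transcript, cluster minus other cells in percentage points (horizontal), for the 702 called Slc pairs in 3 panels by class of cluster, with Peptidergic 488p as open circles. In the named neurons 58 lower pairs lie to the right of 0, and in the Low.UMI clusters all 37 higher pairs lie to the left of it.

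No Slc gene met the size rule for naming in the Low.UMI clusters, which asked for 25% of cells and a lead of 20 points over the rest. Their highest Slc values among called pairs in the authors' deposited table were those of Slc25a4, at 0.79 in Low.UMI.LTMR, 0.64 in Low.UMI.Nonpep and 0.47 in Low.UMI.Pep, and of Slc36a1, at 0.68 in Low.UMI.Nonpep. Slc25a4 was in 81.5% to 85.2% of the cells of these clusters and in 88.9% to 89.9% of other cells. Low.UMI.Nonpep had 14 higher Slc genes (all genes 10.9%). Among them, Slc36a1, Slc7a7, Slc35f4, Slc35b3, Slc24a2 and Slc9a3r2 were also higher in Non-peptidergic. Others were not: Slc17a6 was not listed there, and Slc17a5, Slc35a5 and Slc25a53 were higher in no named neuron cluster. The same overlap was not counted over all genes.

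The Slc genes whose log2 fold changes ran most closely with those of the leading members were sought over clusters listed for both, at least 8. All clusters share cells in their reference group, so these correlations describe the table and carry no test. Slc17a6 ran most closely with Slc6a17 (Pearson r = 0.98 over 10 clusters, among 37 genes compared), and Slc9a9 with Slc25a12 (0.98 over 9 clusters) and Slc2a3 (0.93 over 11). Slc35f1 ran with Slc43a3 and Slc9a3r1 (both 1.00 over 10 clusters) and Slc12a2 (0.96 over 12), all of which have 1 far value, in Unknown.2. Slc9a3r2 ran with Slc25a38 (0.89 over 8 clusters) and Slc39a10 (0.85 over 13).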

How the data were processed

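Droplet single-cell RNA sequencing covered 2 sorted populations of dorsal root ganglion cells in 8 samples. The values used came from 1 table of cluster markers. Per the file headers, it was deposited with 1 row per gene and cluster, with the p-value, the same after adjustment, the average log2 fold change against the rest of the cells, and 2 fractions of cells in which the gene was detected, inside and outside the cluster. Fractions are printed as percentages. Seurat is the tool in the submitters' processing notes. Read alignment, build, gene annotation, strand of counting, cell filters, normalization and doublet handling were not given in the sources used here, and overlapping genes therefore cannot be told apart. The extract protocol, per the labels, names a nuclei isolation procedure, while the labels speak of living cells being sorted.

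The table holds 56694 pairs of 9229 genes and 20 clusters, and 0 of its value columns name a sample. No deposited p-value exceeds 0.01, and the adjusted p-value was the p-value times 32285 in all 50216 pairs that could be checked. No test was run here: the deposited adjusted p-value under 0.05 was a filter, and each count of Slc genes was set beside the same count over all 9229 genes.

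Shares of cells per cluster were solved by ordinary least squares from the fractions of 6748 genes with a difference of at least 5 points (residual 0.0274 points, sum 100.01%). On a simulated table of 3000 genes the largest error was 0.0092 points. Overall shares of cells, and mean shares over clusters where a gene is not listed, follow from them.

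Named were all members of the vesicular, glutamate uptake, cation-chloride and calcium exchanger lists. Added were, per cluster, up to 3 higher Slc genes of largest log2 fold change in at least 25% of cells and at least 20 points above the other cells, and, per functional list, the genes of largest and smallest value. Other genes named were chosen after their values were seen. A few genes that the rule or lists would name are not reported here. The Slc members and the 15 functional, 5 pathway and cell type lists were chosen with earlier results of these data known. Promoter windows came from the RefSeq table of GRCm38.p6, matched by symbol. Tools were Python 3.11.15, numpy 2.4.6, pandas 2.3.3 and matplotlib 3.10.9.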

Additional observations from a re-analysis of the deposited data

How the results depend on the processing

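The counts of called pairs were recomputed with other thresholds. At an absolute log2 fold change of at least 0.5 the named neuron clusters had 53 higher and 41 lower Slc pairs in place of 166 and 97. As a share of possible pairs these were 3.33% and 2.58% (all genes 4.47% and 2.89%). The Low.UMI clusters had 7 and 33 in place of 37 and 70 (1.47% and 6.92%, all genes 2.36% and 8.66%). The Unknown clusters had 71 higher and 98 lower in place of 95 and 237 (6.38% and 8.81%, all genes 7.87% and 13.9%). With the minimum raised to 1 the counts were 13 higher and 5 lower in the named neurons (0.818% and 0.314%, all genes 1.15% and 0.881%). They were 0 and 6 in the Low.UMI clusters (0% and 1.26%, all genes 0.433% and 2.21%). In the Unknown clusters they were 38 and 24 (3.41% and 2.16%, all genes 3.81% and 4.42%). A larger minimum keeps fewer pairs by construction. Where the share of cells also had to move the same way, 39 lower pairs were left in the named neurons (2.45%, all genes 3.6%). In the Low.UMI clusters 0 higher pairs were left (all genes 0.506%). An adjusted p under 0.001, every listed pair, a gene in at least 25% of cells and transporter genes by name alone each kept all 6 counts within 1.5 times of the main count. So did leaving out Peptidergic 488p, chosen after seeing the data (159 higher and 80 lower in the named neurons). These were 11.1% and 5.59% of possible pairs (all genes 11.3% and 5.94%). The shares of cells moved by at most 0.0017 points with a larger minimum difference. No paired analysis was possible because the table's columns carry no sample, and for the same reason no replicate could be left out. Depth and numbers of cells are unknown, so the counting error of a share of cells could not be given.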
